A study of Danio rerio with 18 samples.

Results

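Larval zebrafish held in 4500 µg/L bisphenol A (BPA), the highest of the 3 concentrations on the arrays, were compared with larvae held in the vehicle. The members are the samples labelled with that concentration and those labelled as control fish, which are 9 of the 18 samples of the series: 4 BPA samples and 5 control samples. Control replicates 4 and 5 are equal in Cy5 foreground at 99.83% of spots, so that they were averaged and counted as 1 array. This left 4 BPA arrays and 4 control arrays among 16 different arrays. The larvae were wild type, and both groups were held in egg water with 0.05% ethanol from 3 hours after fertilization for 7 days. The BPA groups additionally had nominal BPA in the water. Each array set Cy5-labelled RNA of pooled larvae against Cy3-labelled reference RNA of whole adult fish, mixed from males and females at 9 to 1. Every value below is a log2 ratio of the larval over the adult signal, and a log2 fold change is the mean ratio of the BPA arrays minus that of the control arrays. Whole larvae were used, so that fewer cells of a type and less RNA per cell cannot be told apart.

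BPA is a building block of polycarbonate plastic and epoxy resins that binds estrogen receptors weakly and also acts on other nuclear receptors. In egg-laying fish, estrogen bound to its receptor in the liver switches on the vitellogenin genes, whose products travel in the blood to the ovary and become yolk, and these genes therefore serve as markers of estrogen exposure in males and larvae. Sex hormone-binding globulin carries sex steroids in blood, deiodinases and transthyretin set the supply of thyroid hormone, and 11-beta-hydroxysteroid dehydrogenase inactivates cortisol.

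The 8 arrays were not alike within their groups. Across probes, BPA replicates 1 to 4 correlated with the mean profile of the 500 µg/L arrays at r = 0.159, 0.206, 0.394 and 0.716, whereas control replicates 1 to 4 gave 0.783, 0.738, 0.822 and 0.559 (a description across probes that share a reference). BPA replicate 4 thus lay among the controls by this measure, and BPA replicates 1 and 2 lay farthest from them. The Cy3 channel alone, which held the same adult RNA throughout, gave 0.752 to 0.857 on the BPA arrays and 0.771 to 0.896 on the control arrays. The median Cy3 background was 110 and 111 units on BPA replicates 2 and 3 and 162 to 247 units on the other 6 arrays. The median Cy3 foreground was 956, 429, 383 and 404.5 units on BPA replicates 1 to 4, against 656 to 746 on the control arrays. In Cy5 it was 819, 475, 403 and 334 units, against 470 to 650. BPA replicates 2 to 4 were thus dimmer in Cy3 than every control. Between 9476 and 19719 of the 23232 spots per BPA array had a ratio kept by the authors, against 6578 to 19980 per control array. Of the 39 larval tissue markers asked for, from muscle, blood, pancreas, liver, eye, neurons, epidermis and cartilage, 35 genes were measured and 1, col9a2, was called. The tissue marker medians lay between -0.24 for exocrine pancreas and 0.69 for photoreceptors, and the 3 measured egg markers (zp3, zar1, gdf9) had a median of 0.07. The mean larva over adult ratio of these egg markers was -0.63 to 0.26 on the control arrays and -0.42 to 0.04 on the BPA arrays. These ratios did not set the egg genes strongly lower in larvae than in the adult reference.

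Among 22980 probes, 707 differed between the 4500 µg/L and control arrays at an adjusted p under 0.05 in limma (3.08% of the probes tested), of which 639 were higher (2.78%) and 68 lower (0.296%). The probes called higher were mostly those with a low ratio in controls. Their median ratio was -0.18 on the BPA arrays and -1.65 on the control arrays, with a median log2 fold change of 1.43 and a range of 0.84 to 2.52. In 606 of the 639 the ratio was closer to 0 under BPA. The probes called lower ran the other way, with a median ratio of -0.67 on the BPA arrays and 0.39 on the control arrays and a median log2 fold change of -1.06. For 571 of the 707 called probes the 4 BPA and the 4 control arrays did not overlap, against 8.46% of all probes (513 higher, against 5.59%, and 58 lower, against 2.86%). The last probes inside the threshold were rabggtb and 1 probe without a symbol at an adjusted p of 0.0499, and the first outside it were tgfb2 and zbtb16a at 0.0502. In the Cy5 channel alone limma called 0 probes, with 1805 at an unadjusted p under 0.05 (7.85%), and in the Cy3 channel alone 0, with 1203 (the ratios gave 5009, or 21.8%). The called probes had the same sign in Cy5 alone in 692 of 707 cases and an unadjusted p under 0.05 there in 279. Their median Cy5 difference was 0.69 for those called higher and -0.73 for those called lower, and their median Cy3 difference was -0.57 and 0.45, so that the channels differed in opposite directions.

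The calls were not spread evenly over the spots in ID order. In ID order the spots form 48 runs of 484. The accessions of BC clones begin at spot 345 of these runs, so that spots 345 to 484 are called the second stretch here and spots 1 to 344 the first. The second stretch held 28.9% of the probes and 575 of the 639 called higher. Of its probes 8.68% were called, 8.65% higher and 0.0301% lower, against 0.392% higher and 0.404% lower in the first stretch. Among the spots with an accession, 16.8% in the second stretch and 87.6% in the first had that of an expressed sequence tag, and 62.7% and 0% that of a BC clone. The study's methods name 2 sources of probes without saying which spots hold which. They give the number of probes from the larger source, Compugen, which is close to the 16512 spots of the first stretch. The part of probe source in these calls was not tested.

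**Figure D1:**
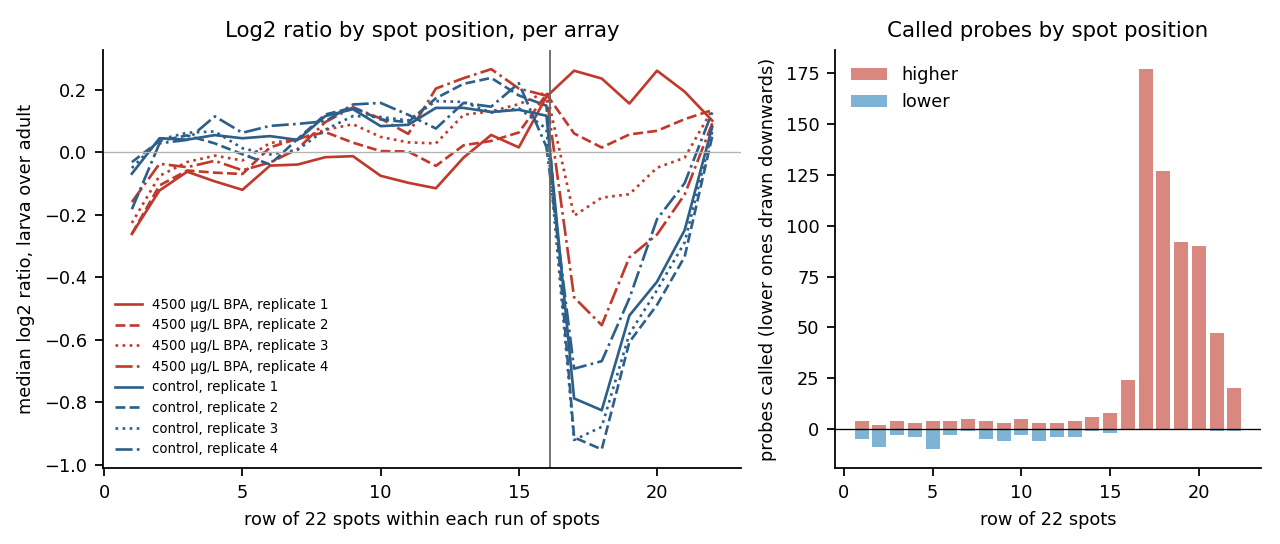
Median log2 ratio (larva over adult reference) of the probes in each row of 22 spots within the runs of 484 spots, 1 line per array, for 4500 µg/L BPA (red) and control (blue), with a line where the second stretch begins (left), and the number of probes called at an adjusted p under 0.05 in each row, higher drawn upwards and lower downwards (right). The 4 control arrays and BPA replicate 4 drop there, the other BPA arrays drop less or not at all, and most calls lie in the rows after it.

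Past that point the ratio shifted on each array, and the shift separated the groups. Relative to the first stretch, the median ratio of the second stretch was shifted by 0.26, 0.09, -0.09 and -0.32 on BPA replicates 1 to 4, against -0.49, -0.57, -0.52 and -0.38 on control replicates 1 to 4. All 4 BPA values were above the 4 control values, with BPA replicate 4 nearest to them. On the 500 µg/L arrays it lay between -0.47 and -0.18. The median ratio of the second stretch was -0.02 on the BPA arrays and -0.40 on the control arrays, which gave a median log2 fold change of 0.49, while it was -0.10 over the first stretch. Within the second stretch the difference was uneven. The median log2 fold change fell from 0.79 at spots 353 to 374, through 0.47 at spots 419 to 440, to 0.06 at spots 463 to 484. The shift in Cy5 alone was 0.30, -0.16, 0.02 and -0.32 on the BPA arrays and -0.57, -0.56, -0.53 and -0.08 on the control arrays, so that control replicate 4 lay above 2 BPA arrays there. In Cy3 alone, the adult reference, it was 0.07, -0.21, 0.29 and 0.42 on the BPA arrays. On the control arrays it was 0.34, 0.51, 0.39 and 0.52 in Cy3, so that only BPA replicate 4 reached into their range. The reference channel thus also differed between the groups, in the opposite direction to Cy5.

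Each array was therefore also normalized with separate loess curves for the 2 stretches, a step chosen after the data were seen. It left medians of 0.03 and -0.01 in the second and the first stretch, and 3 of 22980 probes called (0.0131%, 0.0087% higher and 0.00435% lower), with 3811 at an unadjusted p under 0.05 (16.6%). The 3 were derl3 and a probe of the unnamed clone gene sb:cb288, both higher, and cart2, lower. All 707 probes kept their sign and 576 kept an unadjusted p under 0.05, and the median log2 fold change of those called higher was 0.81 in place of 1.43. Fitted alone, the first stretch gave 0 of 16329 probes called (2531 at an unadjusted p under 0.05), and the second stretch gave 1130 of 6651. The separate curves do not follow the change from row to row within the second stretch, so that values with them may be corrected too little in its early rows and too much in its late ones. Genes from the 2 stretches are given separately below, and each value is from the fit with 1 loess curve per array unless the separate curves are named.

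**Figure D2:**
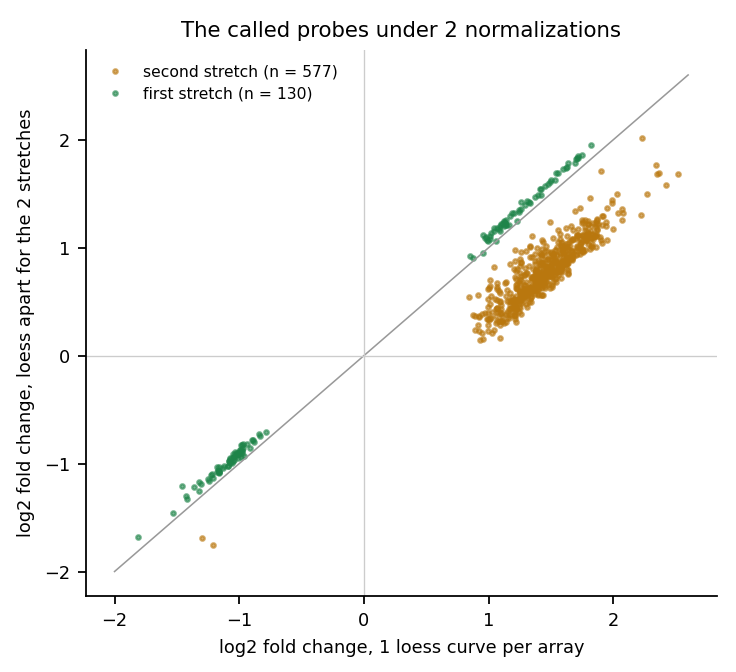
Log2 fold change of the 707 called probes (4500 µg/L BPA over control), with 1 loess curve per array on the horizontal axis and with separate curves for the first (green) and second (ochre) stretch on the vertical axis. Points on the line are equal in both, and the 575 probes called higher in the second stretch lie below it while keeping their sign.

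derl3, which helps to clear misfolded proteins out of the endoplasmic reticulum, rose under both normalizations, as did the unnamed sb:cb288. Its ratios were 0.79, 0.68, 0.10 and -0.28 on the 4 BPA arrays, against -1.59, -1.96, -1.68 and -1.29 on the 4 control arrays. The ratios lay around 0 under BPA and below -1 in every control, with no overlap. It averaged 0.32 ± 0.51 on BPA arrays and -1.63 ± 0.27 on control arrays (SD, n = 4 each). The authors kept its ratio on 1 BPA array and 2 control arrays. The log2 fold change was 1.95 (SE 0.25, adjusted p = 0.0024 from limma), and 1.37 with separate curves (adjusted p = 0.045). In Cy5 alone it was 1.05 (adjusted p = 0.62 from limma) and in Cy3 alone -0.74, so that a lower reference signal was part of the rise in the ratio. Among 38 measured genes of the unfolded protein response it was the only one called, a share near the 2.17% of all 9264 genes called higher (2.47% in either direction), and the list's median was 0.02 (-0.02 over 9264 genes).

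vtg4, one of the vitellogenins, had the highest fold change among the yolk and estrogen genes. Its ratios were 0.58, 0.46, 1.12 and -0.30 on the BPA arrays, against -2.02, -1.22, -1.61 and -0.95 on the control arrays. The 4 BPA arrays lay above every control, BPA replicate 4 being the lowest of them. The log2 fold change was 1.92 (SE 0.35, adjusted p = 0.013 from limma), 1.29 with separate curves (adjusted p = 0.076), 1.32 in Cy5 alone and -0.515 in Cy3 alone. None of the other vitellogenin probes was called. vtg3 had ratios of 0.01, 0.10, -0.0038 and -0.15 on the BPA arrays and -0.65, -0.58, -0.57 and -0.80 on the control arrays, so that these groups did not overlap either. Its log2 fold change of 0.64 (SE 0.20) missed the threshold (adjusted p = 0.081 from limma) and was -0.01 with separate curves. Its ratio changed sign under no other setting. In Cy5 alone vtg3 differed by 0.13 and in Cy3 alone by -0.36. The first of its spots in ID order was spot 475 of a run, in a row of spots whose median log2 fold change was 0.06. vtg7 was at -0.55 (SE 0.28) and vtg2 at -0.63 (SE 0.27), neither called, with ratios that overlapped between the groups. With separate curves vtg7 was at -1.36 (adjusted p = 0.086). vtg6 was at 0.59 (SE 0.24, adjusted p = 0.17 from limma), and at 0.03 with separate curves. The 2 vtg5 probes were at 0.58 (adjusted p = 0.22 from limma) in the first stretch and at 0.33 (adjusted p = 0.68) in the second, where BPA replicate 3 was at 2.25 and the other BPA arrays between -0.10 and 0.05. esr1, the estrogen receptor alpha gene, had -0.06 ± 0.20 under BPA and -0.52 ± 0.26 in controls (SD, n = 4 each), a difference of 0.47 that was not called. The 14 measured members of the yolk and estrogen list, among them esr2a, esr2b and the aromatases cyp19a1a and cyp19a1b, lay between -0.63 and 1.92. Only vtg4 was called, against 2.17% of the 9264 genes called higher, 4 were higher and 1 lower at an unadjusted p under 0.05 (12.2% and 8.11% of the 9264 genes), and the list's median of 0.23 became 0.01 with separate curves. vtg3, cxcr4a and ccnd1 were each printed in 14 spots within the second stretch and in 1 spot of the first. The mean of the array medians for the 14 vtg3 spots was 0.06 on BPA arrays and -0.66 on control arrays, and for its 1 other spot -0.44 and -0.01. For cxcr4a, a chemokine receptor, the 14 spots gave -0.08 and -0.99, and its other spot -0.49 and 0.29, again in the opposite order. ccnd1, cyclin D1, gave 0.31 and -0.19 in the 14 spots and 0.04 and -0.10 in the other. actb2, a cytoplasmic actin often used as a control, was lower under BPA in both stretches, at -0.75 against -0.29 in 172 spots of the first and at -0.41 against -0.17 in 14 of the second, values given with no test.

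The other genes with the highest fold changes also had their probes in the second stretch. cap2, a regulator of actin filaments, had ratios of -0.51, 2.89, -0.86 and -1.24 on the BPA arrays, against -2.45, -2.71, -2.38 and -2.25 on the control arrays. The groups did not overlap, but BPA replicate 2 stood far above the other BPA arrays. The log2 fold change was 2.52 (SE 0.61, limma adjusted p = 0.033). The muscle actin actc2 had 0.40, 1.44, -0.28 and -1.50 on the BPA arrays and -2.56, -2.53, -2.51 and -1.45 on the control arrays. BPA replicate 4 and control replicate 4 overlapped, and the authors kept no actc2 ratio on any BPA array. Its log2 fold change was 2.27 (SE 0.47, adjusted p = 0.022 from limma). Counted by the brightest probe of each gene, these 2 were the only contractile muscle genes called of 51, against 2.17% of all genes called higher. The list's median was 0.00.

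adh5l, of the alcohol dehydrogenase family, was the most even over the BPA arrays of the genes with the highest fold changes. It had 0.05, 0.05, -0.09 and -0.20 on the BPA arrays, against -2.03, -2.16, -2.65 and -1.52 on the control arrays. No arrays overlapped, and the BPA arrays had an SD of 0.12. Its log2 fold change was 2.04 (SE 0.29, adjusted p = 0.0054 from limma) and 1.32 with separate curves. In Cy5 alone adh5l differed by 1.07 and in Cy3 alone by -0.725. hoxb7a, a homeobox gene that patterns the trunk, had 0.22, 0.14, -0.57 and -1.25 on the BPA arrays and -2.45, -2.49, -2.12 and -2.72 on the control arrays. The groups were apart again, with BPA replicate 4 lowest. Its log2 fold change was 2.08 (SE 0.30, adjusted p = 0.0054 from limma), 1.32 with separate curves, 1.25 in Cy5 alone and -0.59 in Cy3 alone. Its other probe, in the first stretch, was at 0.55 and was not called.

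**Figure D3:**
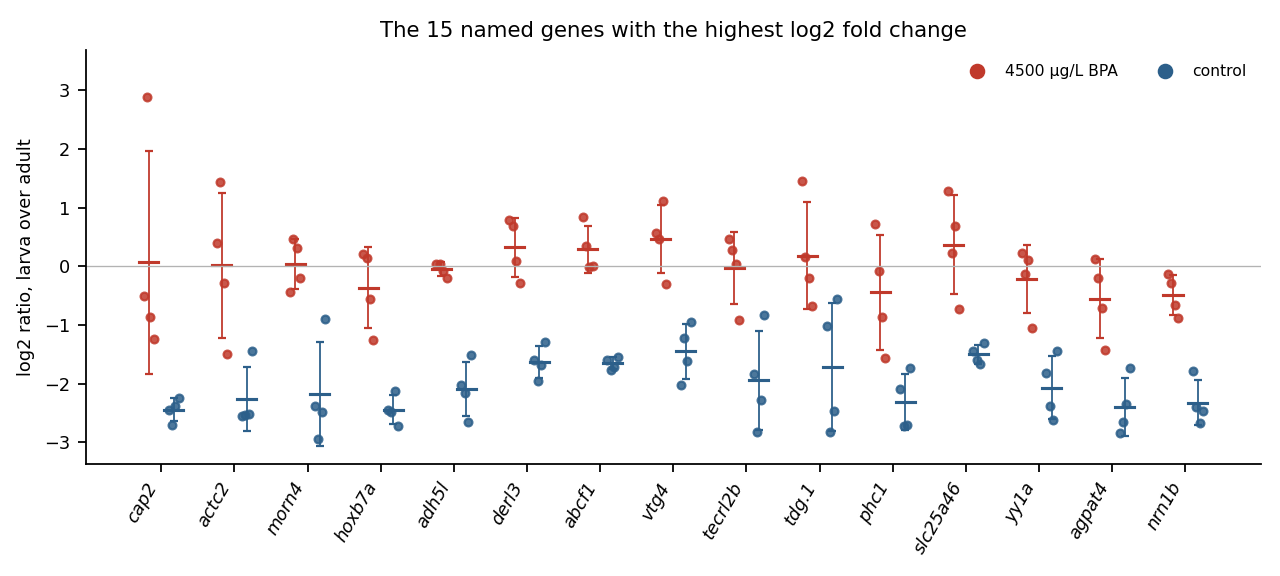
Log2 ratio (larva over adult reference) of the 15 named genes with the highest log2 fold change, 1 point per array for 4500 µg/L BPA (red, left) and control (blue, right), with the mean and SD (n = 4 each). All 15 probes lie in the second stretch; control arrays sit mostly below -1, and BPA arrays spread around 0, cap2 having 1 array at 2.89.

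The remaining genes of this group served in several processes. abcf1, which acts in translation initiation, rose by 1.94 (SE 0.33, adjusted p = 0.011 from limma), with ratios of 0.84, 0.35, -0.02 and 0.01 on the BPA arrays and -1.60, -1.76, -1.71 and -1.54 on the control arrays. These were the tightest controls of the group. In Cy5 alone abcf1 differed by 0.84 and in Cy3 alone by -0.90. slc25a46, a mitochondrial outer membrane protein, rose by 1.87 and had a ratio kept by the authors on all 8 arrays. Its ratios were 1.28, 0.23, 0.68 and -0.73 under BPA and -1.44, -1.59, -1.67 and -1.30 in controls, without overlap. From the ratios as deposited by the authors the log2 fold change of slc25a46 was 0.63 (adjusted p = 0.24 from limma), and with BPA replicate 4 alone it was 0.775. Also called were morn4 at 2.22, tecrl2b of the enoyl-CoA reductase family at 1.91, phc1 of the Polycomb complex at 1.87, the zinc finger factor yy1a at 1.85, the acyltransferase agpat4 at 1.84 and the neuronal protein neuritin, nrn1b, at 1.84. Of these, morn4 and yy1a differed by 0.37 and 0.50 in Cy5 alone and by -1.48 and -1.07 in Cy3 alone. The authors kept a ratio of each on 1 BPA array. tecrl2b, phc1, agpat4 and nrn1b differed by 0.75 to 1.29 in Cy5 alone and by -0.84 to -0.37 in Cy3 alone. tdg.1, a thymine DNA glycosylase, was called at 1.90 (SE 0.50) but differed by -0.41 in Cy5 alone and by -2.31 in Cy3 alone, so that its ratio was higher with a lower reference signal and no higher larval signal. Of the smaller changes, pak2b, a p21-activated kinase, rose by 1.66 (SE 0.25, adjusted p = 0.0062 from limma), park7, which protects against oxidative stress, by 1.62, the keratin krt96 by 1.73, the succinate dehydrogenase subunit sdhda by 1.70 and the glutathione peroxidase gpx1b by 1.49. In Cy5 alone gpx1b differed by 0.43, and pak2b, park7, krt96 and sdhda by 0.87 to 1.23. From the ratios as deposited sdhda differed by 0.06 (adjusted p = 0.91 from limma) and park7 by 0.72 (adjusted p = 0.21), while pak2b, krt96 and gpx1b had too few kept ratios.

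Some of these genes had a probe elsewhere that did not pass the test. Of the 216 genes called higher in the second stretch, 63 had another 75 probes in the first stretch. None of the 75 was called higher, which is near the share of 0.392% among all probes of the first stretch. At an unadjusted p under 0.05 from limma 4 were higher and 9 lower, beside 902 and 1526 of all 16329 probes there. Of the 75, 25 lay above 0, and their median was -0.17, against -0.10 over the first stretch. The other abcf1 probe was at -0.25, that of pak2b at -0.44, that of tdg.1 at -0.38 and that of nrn1b at -0.40. The other agpat4 probes were at 0.40 and 0.05, those of yy1a at 0.28 and -0.17, and that of gpx1b at 0.21. Over all 813 genes with probes in both stretches, the median log2 fold change was 0.46 in the second stretch and -0.09 in the first stretch, and the value in the second stretch was the higher in 633. Across these genes the 2 values correlated at r = -0.01, and different probes of a gene within a stretch at r = 0.05 (985 genes, the first stretch) and r = -0.09 (88 genes, the second stretch), so that probes of a gene gave little common signal in either place. These are correlations across genes, which share arrays.

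In the first stretch, where the median log2 fold change was -0.10, 130 probes were called, 64 higher and 66 lower (0.796% of the 16329 there). At an unadjusted p under 0.05 from limma, 902 probes there were higher and 1526 lower. Of the 130, 20 higher and 35 lower probes had a symbol other than a clone name and a Cy5 signal of at least 1.5 times the background. All 55 kept an unadjusted p under 0.05 with separate curves, but none of them was called so (adjusted p of 0.053 or more from limma). The clone gene sb:cb288, outside the 55, also lies in the first stretch and was called with separate curves (adjusted p = 0.045 from limma). As given above, the first stretch fitted alone gave no call. In Cy5 alone 19 of the 20 and 32 of the 35 had the same sign. The genes called higher that are named here were chosen after their values were seen. They include matrix, membrane and signalling genes. fras1, a basement membrane protein of skin and fins, had 0.37, 1.04, 0.96 and -1.34 on the BPA arrays and -1.41, -1.74, -1.47 and -1.63 on the control arrays. BPA replicate 4 lay just above the controls while the other 3 BPA arrays were far above them. Its log2 fold change was 1.82 (SE 0.48, adjusted p = 0.043 from limma). col9a2, a collagen of cartilage, had 1.43, 0.35, 0.82 and -0.78 under BPA and -0.64, -1.37, -1.23 and -1.46 in controls. Here BPA replicate 4 lay below control replicate 1. The log2 fold change was 1.63 (SE 0.38, adjusted p = 0.029 from limma), and another col9a2 probe was at 0.47 and not called.

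yipf5, a Golgi membrane protein, had 2 probes with similar fold changes. One had 1.45, 0.57, 0.73 and -0.04 on the BPA arrays, against -0.67, -1.10, -1.72 and -0.65 on the control arrays, with no overlap. It rose by 1.72 (SE 0.36, adjusted p = 0.022 from limma), and the other probe was at 1.48 (SE 0.45, adjusted p = 0.07 from limma), with groups that overlapped. osbpl2b, an oxysterol-binding protein, rose by 1.49 (SE 0.29, adjusted p = 0.018 from limma), with 1.24, 1.64, 1.22 and -0.04 under BPA and -0.20, -0.47, -0.50 and -0.72 in controls. The adaptor protein wacb rose by 1.54 (SE 0.31), with 1.56, 1.51, 0.68 and 0.46 under BPA and -0.63, -0.65, -0.72 and 0.04 in controls. The BPA arrays of both genes were above every control. Also called were ptprn2 of secretory vesicles at 1.72, p2rx3a, an ATP-gated channel of sensory neurons, at 1.56, and the splicing factor sf3b4 at 1.37. mmp14a, a matrix metalloproteinase, was called at 1.53 by 1 probe, and its other probe was at -0.79.

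The genes called lower in the first stretch had varied roles. atp5f1b, the beta subunit of mitochondrial ATP synthase, had -2.17, -1.54, -2.20 and -0.42 on the BPA arrays, against -0.04, -0.38, -0.13 and 1.46 on the control arrays. The groups did not overlap, though BPA replicate 4 and control replicate 2 nearly met. The ratio fell by 1.81 (SE 0.44, adjusted p = 0.033 from limma) on the log2 scale, and Cy5 alone was at -1.96. A probe of the same gene in the second stretch was at 0.93 and not called. oxct1a, which lets tissues use ketone bodies, had -1.72, -1.61, -0.86 and -0.15 under BPA and 0.25, 0.48, 0.47 and 0.14 in controls. It fell by 1.42 (SE 0.30, adjusted p = 0.022 from limma), while its other probe was at 0.33. Among 73 measured genes of oxidative phosphorylation atp5f1b and sdhda were the only ones called, in opposite directions, with a list median of -0.13. Among 35 genes of fatty acid oxidation and ketone bodies oxct1a alone was called, with a median of -0.14. Both counts are near the 2.47% of all genes called.

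shbg, the sex hormone-binding globulin made in the liver, had -1.03, -0.79, -0.37 and -2.33 on the BPA arrays, against 0.27, 0.38, 0.22 and 0.44 on the control arrays. Every BPA array was below every control, and here BPA replicate 4 was the lowest. The log2 ratio fell by 1.46 (SE 0.31, adjusted p = 0.023 from limma). In Cy5 alone the difference was 0.06 and in Cy3 alone 1.44, so that the larval signal by itself did not differ in that direction. A second shbg probe was at -0.06. mpp1, a membrane scaffold protein of red cells, and c1qbp, a mitochondrial matrix protein, were alike in this respect. Their ratios fell by 1.43 and 1.32, while Cy5 alone differed by 0.22 and 0.45 and Cy3 alone by 1.59 and 1.62. Among the 17 measured genes of sex steroid synthesis and transport shbg was the only one called, against 0.302% of genes called lower, and the median was -0.19 (-0.25 with separate curves). Next was hsd11b2, the cortisol-inactivating dehydrogenase, with -1.18, -1.33, -0.40 and -0.35 under BPA and 0.36, 0.64, -0.36 and 0.16 in controls. Control replicate 3 overlapped with 1 BPA array, and the difference of -1.01 (SE 0.30) was not called (adjusted p = 0.07 from limma). Its second probe was at 0.20. srd5a2b, a steroid 5-alpha-reductase gene outside this list, was called at 1.37 by a probe in the second stretch (0.87 with separate curves).

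**Figure D4:**
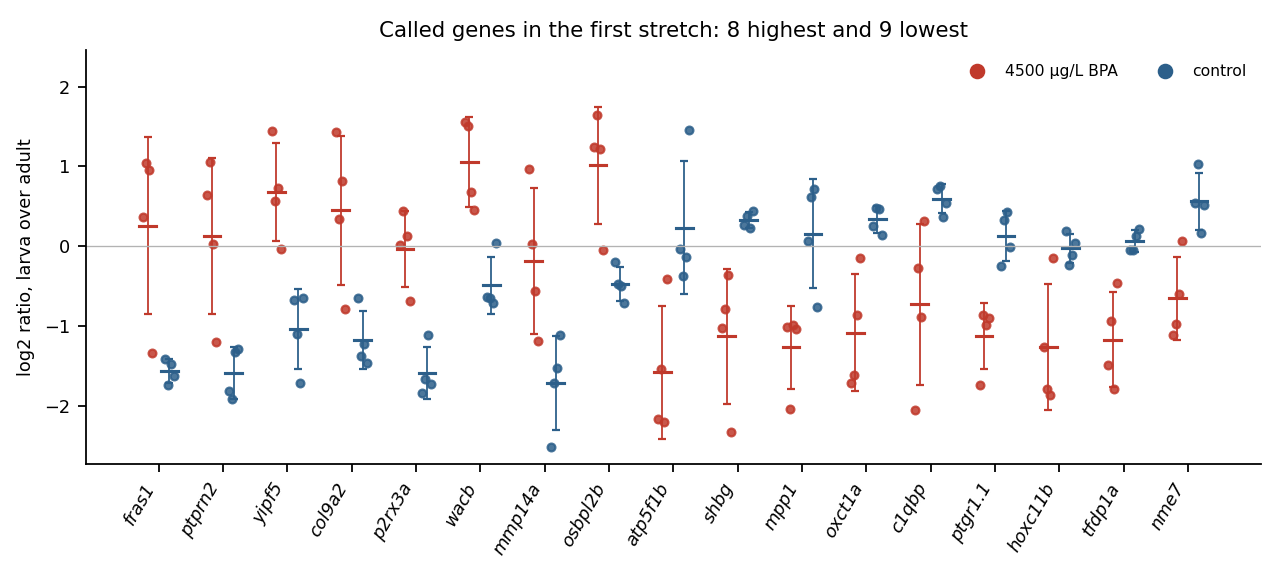
Log2 ratio (larva over adult reference) of named genes called in the first stretch, the 8 highest and the 9 lowest by log2 fold change, 1 point per array for 4500 µg/L BPA (red, left) and control (blue, right), with the mean and SD (n = 4 each). BPA replicate 4 is the BPA array nearest to the controls in all but shbg, mpp1 and ptgr1.1 of the 17 genes; in shbg it is at -2.33.

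Further genes fell in the ratio, with a larval signal that differed in the same direction. tfdp1a, the partner of E2F factors at the start of DNA replication, had -1.49, -0.94, -1.79 and -0.46 under BPA and -0.05, -0.04, 0.13 and 0.22 in controls, and the authors kept its ratio on all 8 arrays. It fell by 1.23 (SE 0.30, adjusted p = 0.033 from limma), and Cy5 alone was at -1.15. Its other probe was at 0.15. The homeobox genes hoxc11b and hoxa3a fell by 1.24 and 0.99, and in Cy5 alone they were at -1.09 and -1.01. hoxa3a had -0.61, -0.82, -0.40 and -0.26 under BPA and 0.60, 0.62, 0.43 and 0.24 in controls, with no overlap. Of 32 measured hox genes 2 were called higher (hoxb7a and hoxb10a) and 2 lower, against 2.17% and 0.302% of all genes. Both genes called higher had their probes in the second stretch, where 15 of the 32 lay. The list's median was -0.08. rpl6, of the large ribosomal subunit, fell by 0.94 (SE 0.24, adjusted p = 0.037 from limma), with -1.36, -1.10, -1.46 and -0.56 under BPA and -0.0049, -0.24, -0.45 and -0.04 in controls. Another rpl6 probe was at 0.54, and of 71 cytosolic ribosomal protein genes no other was called. ptgr1.1, a prostaglandin reductase, fell by 1.25, nme7 of the nucleoside diphosphate kinases by 1.22, thbs4b, a thrombospondin of muscle attachments, by 1.06 and the apolipoprotein apol1 by 1.07.

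The 2 probes called lower in the second stretch went against the shift of that stretch. cart2, a neuropeptide gene, had -0.17, -1.61, -1.16 and -0.41 on the BPA arrays, against 0.30, -0.20, 0.74 and 0.64 on the control arrays. The groups overlapped at BPA replicate 1 and control replicate 2. It fell by 1.21 (SE 0.30, adjusted p = 0.034 from limma), and by 1.75 with separate curves (adjusted p = 0.045). coro6, an actin-binding coronin, had -1.87, -0.86, -1.90 and -0.17 under BPA and between 0.02 and 0.22 in controls. It fell by 1.3 (SE 0.30, adjusted p = 0.03 from limma), and by 1.69 with separate curves (adjusted p = 0.053).

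The thyroid genes gave no call. Of 11 measured members of the axis, dio2, the deiodinase that makes active thyroid hormone, was at -0.60 (SE 0.21, adjusted p = 0.11 from limma), with -0.26, 0.20, 0.15 and 0.36 under BPA and 0.89, 0.77, 0.91 and 0.30 in controls. BPA replicate 4 exceeded control replicate 4, and a second dio2 probe was at -0.24. ttr, the hormone's carrier in blood, was at 1.04 (SE 0.36, adjusted p = 0.11 from limma) and at 0.48 with separate curves. The list's median was -0.10. A further list holds genes that were measured again by PCR. They had been picked on these arrays, so that their direction is no independent evidence. The list was drawn up from 26 symbols, older names and paralogues included, and may not cover every gene so measured. A probe was found for 20 genes, of which 0 were called by limma. At an unadjusted p under 0.05, 8 were higher and 2 lower, against 12.2% and 8.11% of the 9264 genes. Of the 20 genes, 10 had their probe in the second stretch. The list's median of 0.30 was 0.07 with separate curves. The highest, apoeb, an apolipoprotein, was at 1.33, and the lowest, gabpa, a transcription factor of mitochondrial genes, at -0.91, with adjusted p of 0.069 and 0.07 from limma.

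Across the 34 gene lists, 50 of 1403 measured genes were called, 42 higher and 8 lower, beside 229 of 9264 genes with a symbol (2.47%). Each gene was counted by its brightest probe, so that calls by its other probes are left out. Of the 50, 38 had their probe in the second stretch, where 368 of the 1403 lay. With separate curves 1 of the 1403 was called. The lists with most calls were chromatin and Polycomb genes, with 6 of 73 higher and none lower (phc1, cbx8a, kat5b, dnmt3ab, tdg.1 and brd3a), and RNA processing, with 6 of 112 higher and none lower, sf3b4 among them. Their medians of 0.08 and -0.07 were near that of all genes (-0.02). Photoreceptor and lens genes had 2 of 57 called higher, opn1lw2 and cryba2a, with a median of 0.13 that was -0.06 with separate curves. Xenobiotic metabolism had 3 of 28 higher, pora, sult1st2 and adh5l, and liver plasma proteins had 3 of 61 higher (rbp2b, c3b.2 and vtna) and 1 lower (apol1). The lowest median was that of the proteasome, at -0.24 over 50 genes, of which psmd4b was called higher. The 34 germ cell and egg genes, the 33 heat shock genes, the 28 pancreas genes, the 20 heart muscle genes and the 27 red cell genes had no call by limma. Of them 8, 5, 4, 5 and 4 genes had an unadjusted p under 0.05, beside 12.2% of the 9264 genes higher and 8.11% lower.

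**Figure D5:**
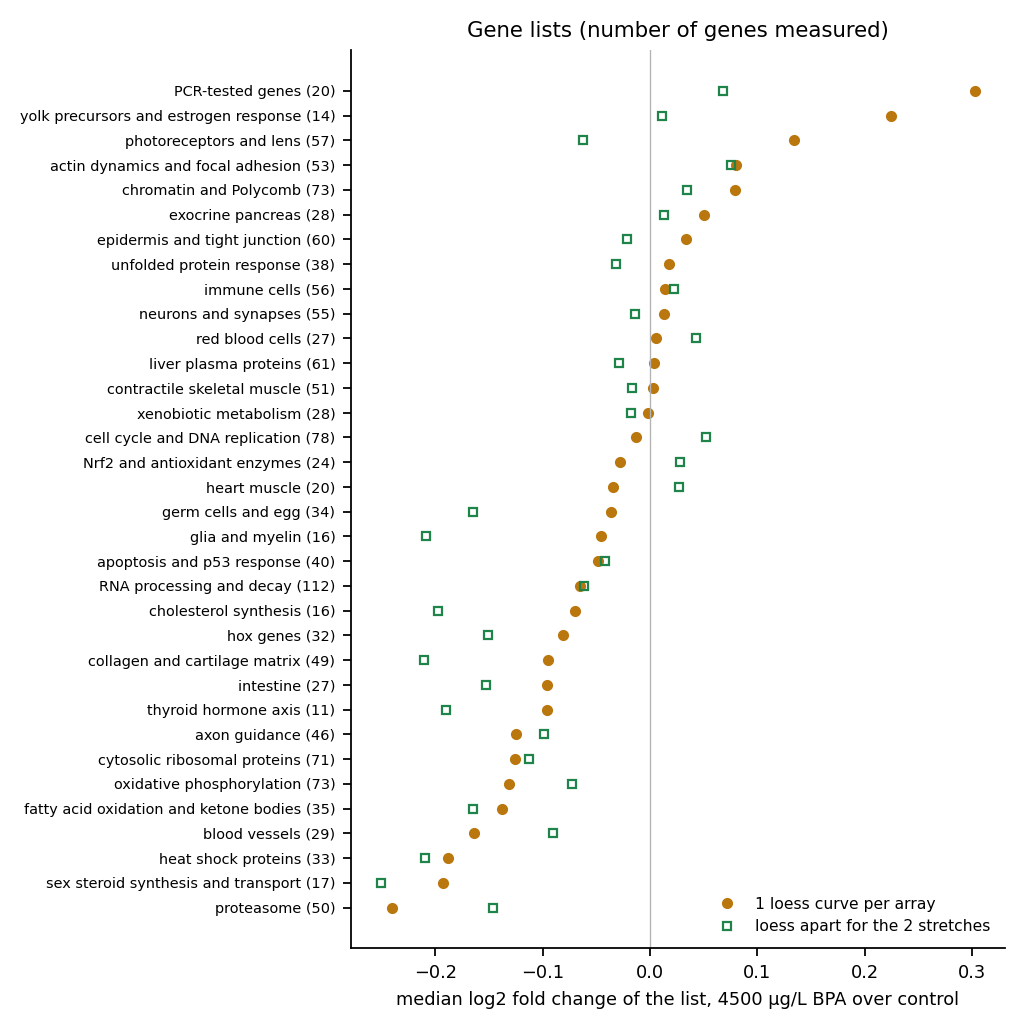
Median log2 fold change (4500 µg/L BPA over control) of 34 gene lists, with 1 loess curve per array (filled) and with separate curves for the 2 stretches of spots (open), and the number of genes measured in brackets. With 1 curve per array the medians run from -0.24 to 0.30, and the 2 lists at the top, the PCR-tested and the yolk and estrogen genes, come close to 0 with separate curves.

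The number of calls also depended on which arrays were used. Without BPA replicate 4 there were 2888 probes called, and 47, 25 and 234 without BPA replicates 1, 2 and 3. Without control replicates 1 to 4 there were 122, 104, 88 and 1121. BPA replicate 4 alone against the 4 controls, a comparison chosen after the data were seen in which its spread is assumed to be that of the other arrays, gave 16 calls (0.0696%), 4 higher (0.0174%) and 12 lower (0.0522%). On that array alone the log2 difference of vtg4 was 1.15, that of derl3 1.35, that of adh5l 1.89 and that of fras1 0.22. Without the 4 arrays of the series that had a Cy3 background under 150 units, BPA replicates 2 and 3 among them, 2 probes were called, and 694 of the 707 had the same sign and an unadjusted p under 0.05. No control array had so low a background, so that no comparison within the low group could be made. In spots whose ratio the authors kept, with at least 3 in each group, 49 of 7303 probes were called (0.671%), 47 higher (0.644%) and 2 lower (0.0274%). Of the 707 called probes, 217 had an unadjusted p under 0.05 with the same sign in each of 15 alternative settings that tested them, 194 higher and 23 lower. A setting that did not test a probe was not counted against it. Only 50 of the 217 had the 3 kept ratios in each group that the settings with kept spots and deposited ratios required. Of the 217, 195 also kept sign and p with separate curves. Among these 195 were derl3, hoxb7a, adh5l, abcf1, vtg4, pak2b, park7, wacb, osbpl2b, yipf5, p2rx3a, atp5f1b, tfdp1a, hoxa3a, nme7 and rpl6.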

How the data were processed

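Larval RNA (Cy5) and adult reference RNA (Cy3) were hybridized to 2-colour spotted oligonucleotide arrays. As deposited, each scan holds unnormalized intensity values (foreground and local background per spot) from GenePix Pro. The authors also deposited log2 ratios, Lowess-normalized, for spots they had not marked as bad. In control replicate 1, 16654 lines shifted by 1 column were put right. The direction of the ratio follows the dyes in the labels and methods.

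Groups follow the labels. Foreground means were corrected with normexp (offset 50) and log2 ratios were normalized by loess within each array. Repeated scans were averaged, leaving 16 arrays, and spots sharing an accession were averaged, giving 22980 probes. limma 3.58.1 in R 4.3.3 fitted the 4 group means with 1 shared spread, and the p-values of the contrast of 4500 µg/L with control were adjusted over all probes (Benjamini-Hochberg). The p-values measure the spread between these arrays, and 4 arrays in each group limit the precision. Each channel alone was quantile-normalized between arrays. The script was tested on simulated data. Gene symbols came from the platform's annotation and were updated through RefSeq names: 3538 spots had a current symbol, 7978 an older one, 55 were matched by accession and 11508 were not listed.

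Named genes have 1 symbol, a call and Cy5 of at least 1.5 times its background: the 15 highest, the 10 lowest, up to 15 by smallest p among those stable across settings, members of gene lists, and the yolk, steroid and thyroid genes. List values use the brightest probe of a gene. The comparison, its members and the lists were chosen with earlier results of these data known. Python 3.11.15 read the files and drew the figures. Probe sequences were not used here.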

Additional observations from a re-analysis of the deposited data

Results flagged for a closer look

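Among 114 groups of 4 arrays, each the values of 1 named probe in 1 group, 5 had an array far from the other 3, beyond Dixon's limit, which chance alone exceeds in about 1 of 20 groups. For actc2, a muscle actin, control replicate 4 was at -1.45, against -2.56 to -2.51 on the other controls. For wacb control replicate 4 was at 0.0397, against -0.72 to -0.63. For ptgr1.1 BPA replicate 1 was at -1.74, against -0.99 to -0.87 on the other BPA arrays, and for mpp1 BPA replicate 2 was at -2.04, against -1.04 to -0.98. For vtg5, in the second stretch, BPA replicate 3 was at 2.25, against -0.10 to 0.05 on the other BPA arrays. The 2 control values lie towards the BPA arrays and the BPA values of ptgr1.1 and mpp1 lie away from the controls.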

How the results depend on the processing

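The 707 calls, and the 50 among list genes, rested on the processing more than on single genes. Planned settings gave 49 and 2 calls when dropped spots stayed out, 4 and 3 without background correction, 3 and 1 with subtraction, 467 and 32 with an offset of 10, 3 and 2 with quantile normalization, 71 and 9 over the brighter probes, 1644 and 106 with 18 scans as separate arrays, 157 and 12 with the 2 groups alone, 1415 and 92 with array weights, 18 and 6 with low Cy3 background as a block, and 2 and 0 without those arrays. The deposited ratios gave 0 and 0 in limma (1229 at an unadjusted p under 0.05), Cy5 alone 0 and 0, and the methods' t-test 0 and 0 (3271 at an unadjusted p under 0.05). Its 2-step rule gave 63. Leaving out 1 array gave 25 to 2888 calls, and 5 to 195 among list genes. Median centring (777) and a running median in ID order (762) changed little.

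Settings chosen after the data were seen gave 3 and 1 with separate curves for the 2 stretches, 0 and 0 with them and no background correction (3217 at an unadjusted p under 0.05), 1 and 1 with a curve for each row of spots, 110 and 17 with curves in 48 blocks and no background correction, 0 and 0 over the first stretch alone, 1130 and 62 over the second, and 16 and 1 for BPA replicate 4 alone (13 and 1 with separate curves). The cause of these changes was not tested. Curves in 48 blocks with the background correction kept changed the number of calls little, with 689 probes called.

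With the replicate number as a block 393 probes were called, and 32 list genes. Deviations of same-numbered arrays correlated at -0.275 to 0.005, and those of differently numbered arrays at -0.092 to 0.223. The labels do not say whether the numbers pair the samples, and 4 such correlations cannot settle it.

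Of 53 named genes under these settings, 19 values turned their sign. In Cy5 alone these were c1qbp (0.45), shbg (0.056), vtg7 (0.076), tdg.1 (-0.41), mpp1 (0.22) and vtg5 (-0.32). vtg3 was at -0.0093 with separate curves, and vtg2 at 0.024 with BPA replicate 4 alone and 0.042 there with separate curves. vtg6 was at -0.119 with a curve for each row of spots. The vtg5 probe of the second stretch was at -0.25 there, -0.189 with low Cy3 background as a block, -0.258 without those arrays, -0.0932 with curves in 48 blocks, -0.0967 with separate curves (-0.125 without background correction), -0.322 with BPA replicate 4 alone (-0.732 with separate curves), and between -0.231 (without BPA replicate 3) and 0.551 when 1 array was left out. Of 1645 values, 728 kept their sign and side of the threshold, 891 lost their call and 7 gained one. Of the 22980 probes, 21898 had Cy5 of at least 1.5 times its background, and the ratios of the others rest on dim spots. Passing this limit does not make a spot bright. Among the named genes with the highest fold changes, Cy5 over background was 1.54 for nrn1b, 1.56 for hoxb7a and 1.84 for adh5l and derl3. The largest values among them were 2.71 for tdg.1 and 6.97 for cap2. These are means over the 8 arrays, and that of cap2 rests on 1 array. Its normalized log2 Cy5 signal was 14.4 on BPA replicate 2 and 6.14 to 8.29 on the others. Without background correction all 707 called probes kept their sign. Their median log2 fold change was then 0.63 in place of 1.43 (higher) and -0.565 in place of -1.06 (lower). The deposited ratios tested 215 of the 707. Of these, 209 kept their sign, 104 of them with an unadjusted p under 0.05 from limma, and the medians were 0.44 (higher) and -0.77 (lower).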
